A study of Mus musculus with 24 samples.

Results

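The comparison described here sets marrow from mice given 2 inhibitors together against marrow from mice given 1 of them, and asks what blocking Bruton's tyrosine kinase (BTK) adds once the delta isoform of phosphoinositide 3-kinase (PI3K) is blocked. All mice carried Shp2 E76K, a gain-of-function form of the SHP2 phosphatase (gene Ptpn11) known from juvenile myelomonocytic leukemia, so no group here is free of the mutation. The combination group received ACP196, the BTK inhibitor, together with ACP319, the PI3K delta inhibitor, and the other group received ACP319 alone, both for 3 weeks. RNA came from bone marrow mononuclear cells. Members were chosen by the treatment in the labels: 3 specimens numbered 10 to 12 (combination) and 3 numbered 7 to 9 (PI3K inhibitor alone), which are 6 of the 12 specimens and 12 of the 24 listed samples of the study. The other specimens are vehicle (numbers 1 to 3) and the BTK inhibitor alone (4 to 6), and their values stand beside some results. Whether each number stands for its own mouse, how old the mice were and how the mutation was driven are not given in the labels, and p-values thus reflect specimen-to-specimen spread that may be technical. The titles of all 6 compared specimens carry the same date.

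BTK and PI3K delta act next to each other below the B cell receptor and several myeloid receptors. PI3K delta makes the membrane lipid PIP3, BTK binds that lipid through its PH domain, and active BTK phosphorylates phospholipase C gamma. PI3K also feeds AKT, which keeps FOXO transcription factors out of the nucleus, while SHP2 carries cytokine receptor signals to RAS and ERK.

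The 6 libraries held 16038577 to 21944506 counts on genes, and 12284 of 24421 genes were tested. The ribosomal RNA precursor Rn45s took 0.214% to 0.773% of the counts. Y-linked transcripts were present in 1 of 3 specimens on each side (8 and 11). Hemoglobin genes took at most 0.0021% of the counts, with 1 of 12 listed in the table tested. Markers of marrow myeloid cells were present. All 21 monocyte and all 22 mature neutrophil markers of the lists used passed the count filter and were tested. The neutrophil granule gene Camp lay between 4663 and 28652 CPM (counts scaled to library size). How pure the mononuclear cells were was not tested. Specimens did not fall evenly into their groups. PI3K inhibitor replicate 7 correlated more closely with combination replicate 10 (r = 0.984 across genes) than with replicates 8 and 9 of its own group (0.97 with each).

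The libraries of the groups differed in how expression followed gene length. Within each library the deviation of each gene from its mean over the specimens was regressed on log2 gene length. The slope was 0.093, 0.257 and 0.301 log2 per doubling of length in combination replicates 10, 11 and 12, a mean of 0.217 ± 0.11 (SD, n = 3). In PI3K inhibitor replicates 7, 8 and 9 it was -0.104, -0.384 and -0.398, a mean of -0.295 ± 0.166. The groups did not overlap, and the difference of 0.512 had an exact permutation p = 0.1 (2-sided), the smallest that 3 against 3 specimens allow. Vehicle had a mean slope of 0.236 ± 0.16. BTK inhibitor replicates 4, 5 and 6 had slopes of -0.296, -0.355 and 0.18, which reach into the ranges of both compared groups. Long transcripts were thus read more, and short ones less, in the combination than in the PI3K inhibitor libraries. Whether treatment, RNA quality or library preparation set these slopes was not tested, and with 3 libraries a side the treatment and the slope cannot be told apart.

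**Figure D1:**
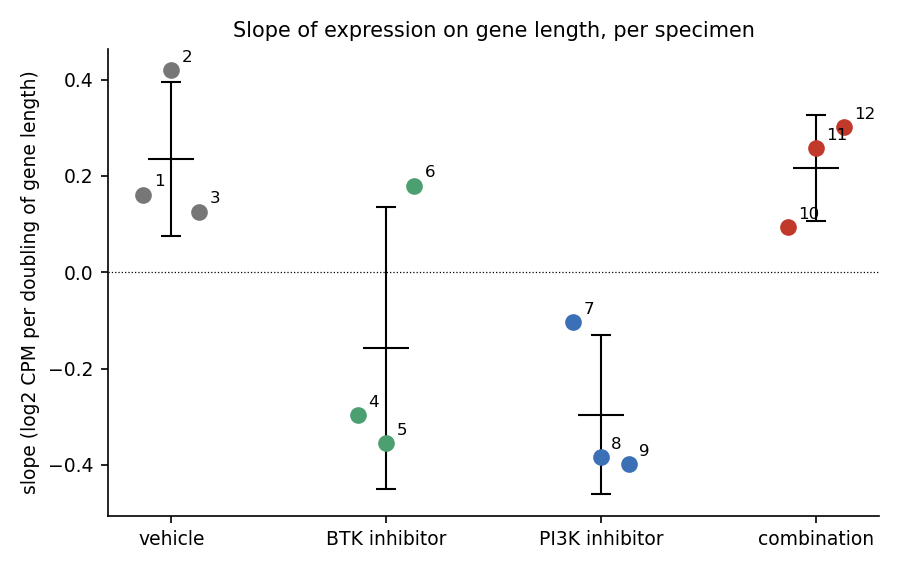
Slope of expression on gene length for each specimen, in log2 CPM per doubling of gene length. Points are specimens with their numbers, long bars are group means and whiskers are SD over 3 specimens. All 3 combination specimens lie above 0 (0.093 to 0.301) and all 3 PI3K inhibitor specimens below it (-0.398 to -0.104).

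Without regard to length, a large part of the transcriptome differed between the groups. By the quasi-likelihood test of edgeR with p-values adjusted after Benjamini and Hochberg (called at 0.05 or less), 2022 genes (16.5% of those tested) were higher with the combination and 1982 (16.1%) were lower, a total of 4004 (32.6%). With all 12 specimens in the edgeR fit 0 genes were called higher and 0 lower (3618 had an unadjusted p under 0.05), and without BTK inhibitor replicate 5 in that fit 1299 and 1305. Without combination replicate 11, 766 were called higher and 359 lower. CPM values of the 3 against 3 specimens did not overlap for 6434 genes (52.4%). The direction followed gene length closely. Genes called higher had a median length of 5519.5 bases and genes called lower one of 1227.5, against 2850.5 over all tested genes. Among 152 genes of up to 500 bases the median log2 difference was -1.31, and 65.1% were called lower and none higher. It was -0.08 among 2809 genes of 2000 to 3000 bases. Among 326 genes longer than 9000 bases the median was 1.14, and 72.7% were called higher.

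Each gene was therefore also compared with genes of like length, in a pair of ways. The first is a second edgeR fit with an offset per library, a spline of expression on log2 gene length. The second, with no test, subtracts the median log2 difference of a window of genes, the gene itself and the 500 nearest to it in length. With the offset 207 genes (1.69%) were called higher and 237 (1.93%) lower, a total of 444 (3.61%). The spread of log2 differences over all genes (SD) went from 0.732 to 0.505. Both fits called 334 genes with the same sign, 196 higher and 138 lower, and no gene was called in opposite directions. The calls made without the offset alone numbered 3670.

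**Figure D2:**
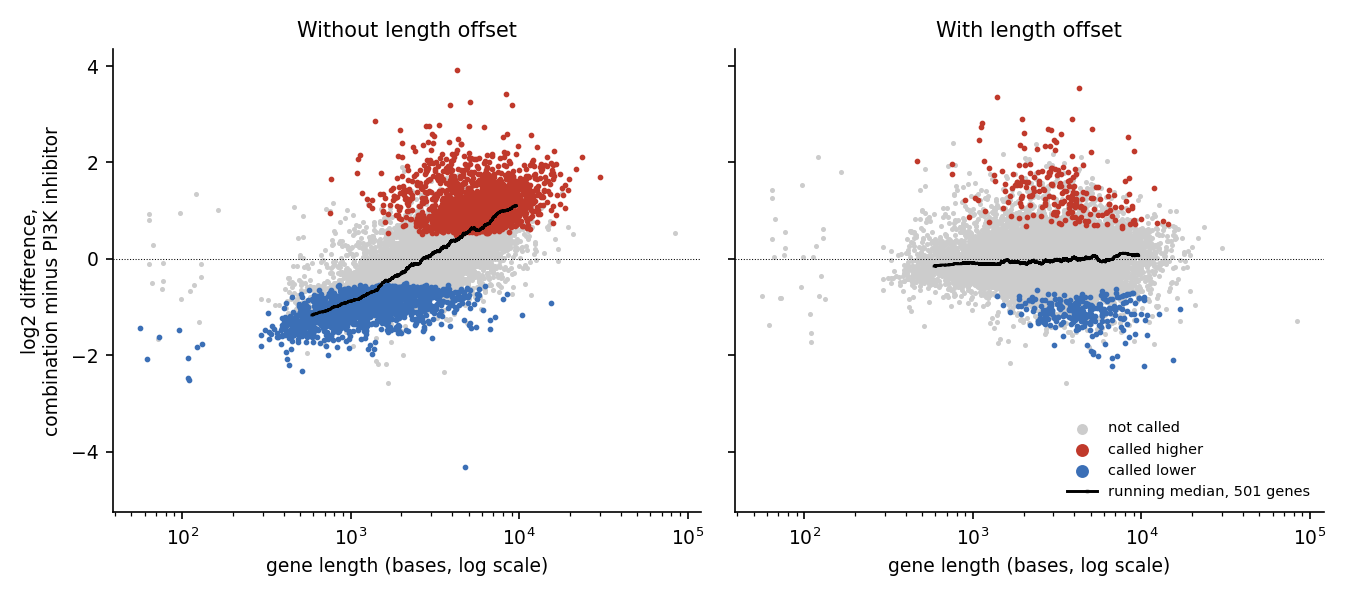
Log2 difference of each tested gene (combination minus PI3K inhibitor) against its length in bases on a log axis, without the length offset (left) and with it (right). Red and blue points are genes called higher and lower, grey points are not called, and the black line is the running median over genes of like length. The line climbs from below -1 for the shortest genes to above 1 for the longest on the left and stays close to 0 on the right.

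The calls made with the offset depend on which specimens enter the fit and on which length is used. With all 12 specimens in the edgeR fit 0 genes were called higher and 0 lower (1327 had an unadjusted p under 0.05), and the same held without BTK inhibitor replicate 5 (2745 with such a p). The deposited length is that of the whole gene model. Among genes called lower with the offset it was a median of 3 times the shortest coding transcript in GENCODE M21, against 1.06 times over all tested genes and 1 time for genes called higher. Of the 334 genes called in both fits, 322 have such a transcript. Of these, 195 (122 higher and 73 lower) were also called when the offset used the median transcript length of the gene. With the length of the shortest transcript, 225 were called (165 higher and 60 lower). All 4 fits called 177 genes, 122 higher and 55 lower. With the offset by deposited length, no gene was called by edgeR without combination replicate 11 or without replicate 12, and 1 gene each without PI3K inhibitor replicate 8 or 9, against 223 without combination replicate 10 and 1472 without PI3K inhibitor replicate 7. At an unadjusted p under 0.05 there were 1966 genes without replicate 11 and 1809 without replicate 12. Each gene described below as called with the offset was called in 1 to 3 of the 6 fits that leave a specimen out. None of these genes changed sign in any alternative that kept a length offset.

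The spread within the groups had a common shape over the called genes. Among the 196 genes higher in both fits, PI3K inhibitor replicate 7 was the member of its group nearest to the combination for 169 (86.2%). Combination replicate 10 was the member nearest to the PI3K inhibitor group for 179 (91.3%). For the 138 genes lower in both fits these counts were 129 (93.5%) and 122 (88.4%). Over all tested genes with a positive difference the shares were 59.9% and 64.2%.

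The transcripts of the drug targets and of the mutated phosphatase did not set the groups apart at like length. Btk (chromosome X, 134542341 to 134583140 on the minus strand, mm10) was at 105, 102 and 107 CPM in PI3K inhibitor replicates 7 to 9. In combination replicates 10 to 12 it was at 94.1, 86.5 and 90.0 CPM. The values did not overlap, and the log2 difference of -0.21 ± 0.18 (SE) was not called (edgeR adjusted p = 0.372). Pik3cd, which encodes the catalytic subunit that ACP319 blocks, was at 128, 115 and 93.2 CPM against 146, 167 and 178 CPM. Its log2 difference of 0.55 ± 0.20 was not called (edgeR adjusted p = 0.0534) and was -0.05 with the offset. Ptpn11 itself, the gene that carries E76K, was at 77.5, 65.1 and 61.4 CPM against 90.1, 105 and 113 CPM. It was called higher without the offset (log2 0.59 ± 0.19, edgeR adjusted p = 0.0366) and not with it (-0.04 ± 0.14, edgeR adjusted p = 0.886). The window of genes nearest to Ptpn11 in length had a median log2 difference of 0.60, and Ptpn11 lay in the middle of it, with 256 of the other 500 genes higher and 244 lower.

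Cbl stood first among the genes higher with the combination. It encodes the ubiquitin ligase that tags activated receptor and cytoplasmic tyrosine kinases for removal, and it is itself a gene mutated in juvenile myelomonocytic leukemia. Cbl (chromosome 9, 44149262 to 44234046, minus strand) was at 13, 6.26 and 5.57 CPM with the PI3K inhibitor and at 43.3, 92.3 and 103 CPM with the combination. Every combination specimen was more than 3 times as high as any PI3K inhibitor specimen. The log2 difference was 3.25 ± 0.39 without the offset (edgeR adjusted p = 0.00739) and 2.70 ± 0.31 with it (edgeR adjusted p = 0.0386). None of the 500 other genes nearest in length had a larger difference. It was 2.77 with the median transcript length and 3.04 with the shortest, and from 2.51 to 3.07 when each specimen was left out, with 2 of those 6 fits calling it. Vehicle stood at 106 ± 49.3 CPM and the BTK inhibitor alone at 34.3 ± 33.9 (SD, n = 3).

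A further 11 genes followed Cbl, with log2 differences from 1.94 to 2.60 with the offset and edgeR adjusted p-values from 0.0386 to 0.0423. In all 12 higher genes, Cbl included, the mean CPM of vehicle was above that of the PI3K inhibitor. In 9 of the 12 it was also above that of the combination. Slco4c1, an organic anion transporter, was at 7.24, 1.53 and 3.60 CPM with the PI3K inhibitor against 17.4, 21.6 and 20.5 CPM. The 3 combination specimens lay within a narrow band, well above the others. Gatad2b, a subunit of the NuRD chromatin remodeling complex, was at 10.8, 1.67 and 6.07 CPM against 20.9, 29.2 and 32.1 CPM. Cep85l, a centrosomal protein, was at 3.77, 0.533 and 1.64 CPM against 8.14, 10.4 and 13.4 CPM, and its log2 difference was 2.37 without the offset and between 2.30 and 2.34 under each of the 3 lengths. In each of these genes PI3K inhibitor replicate 7 was the highest and replicate 8 the lowest of its group.

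Mgat5, Xylt1 and Pigb belong to the same 11 genes. Mgat5, the transferase that starts an extra branch on N-glycans, was at 4.40, 0.999 and 2.59 CPM against 12.3, 16.7 and 19.2 CPM. Xylt1, the xylosyltransferase that begins glycosaminoglycan chains, was at 3.98, 3.46 and 1.96 CPM against 10.1, 19.0 and 21.3 CPM. Pigb, a mannosyltransferase of the glycosylphosphatidylinositol anchor, was at 3.85, 1.33 and 2.09 CPM against 7.62, 10.1 and 8.99 CPM, and 27.4% of its exon bases are shared with the gene Ccpg1. The groups did not overlap in these 3 genes, which was a condition for naming the 12 genes in each direction. It also held for 52.4% of all tested genes.

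The other genes of this set were Uhmk1, a kinase with an RNA-recognition fold, Wdfy2, a protein of early endosomes, Zbed6, a transcription factor that lies within the gene Zc3h11a, Slfn9, one of a family of near-identical Schlafen genes, and Fam46c, a poly(A) polymerase. Reads from Zbed6 and Zc3h11a, and from Slfn9 and its relatives, may not be fully told apart. Uhmk1, Wdfy2 and Xylt1 have coding transcripts far longer than their deposited length (Uhmk1 7775 against 2024 bases). With the median transcript length their log2 differences went from 2.60 to 1.43, from 2.29 to 1.27 and from 2.27 to 1.32. Of the 12 higher genes, all 11 with a coding transcript were called under each of the 3 lengths. Fam46c, which has none under that symbol, differed from the rest in its spread, at 9.53, 15.1 and 36.2 CPM against 57.1, 66.7 and 74.8 CPM, with replicate 9 and not 7 nearest to the combination.

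**Figure D3:**
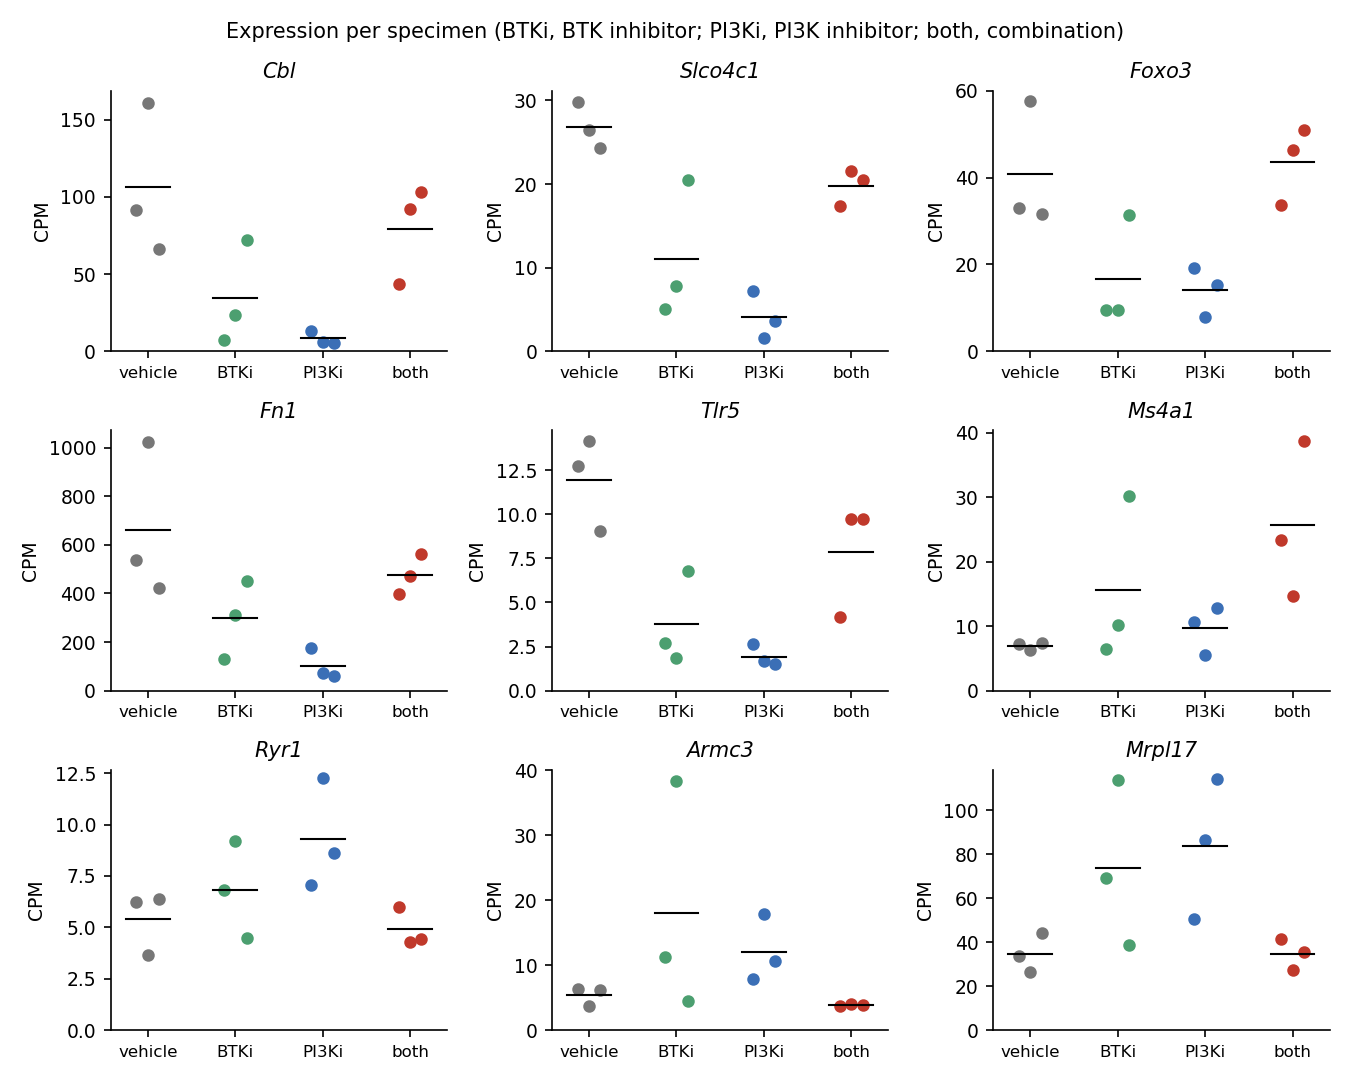
Expression in CPM (vertical axes from 0) of 9 named genes in all 12 specimens, by group. Points are specimens and bars are means of 3. Cbl, Slco4c1, Foxo3, Fn1, Tlr5 and Ms4a1 are higher in every combination specimen (red) than in any PI3K inhibitor specimen (blue), and Ryr1, Armc3 and Mrpl17 are lower in every one. Lack of overlap was a condition for naming Cbl, Slco4c1, Ryr1, Armc3 and Mrpl17.

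Of the 12 genes named as lower, 6 were called under all 4 treatments of length: Armc3, Ryr1, Mrpl17, Mrps25, Ccdc180 and Pyurf. The mean CPM of vehicle was above that of the PI3K inhibitor in 0 of the 12 and above that of the combination in 7. Armc3, an armadillo-repeat protein, was at 7.88, 17.8 and 10.6 CPM with the PI3K inhibitor and at 3.74, 4.00 and 3.81 CPM with the combination. The combination specimens were almost equal, and each PI3K inhibitor specimen was higher. Armc3 had a log2 difference of -1.65 ± 0.31 (edgeR adjusted p = 0.00806) and -1.80 ± 0.32 with the offset (edgeR adjusted p = 0.0386). Ryr1 (chromosome 7, 29003340 to 29125151, minus strand), the calcium release channel best known from skeletal muscle, was at 7.07, 12.3 and 8.6 CPM against 6.01, 4.30 and 4.44 CPM. Ryr1 has 15362 bases and was compared with the window of the longest genes, a broad one of 8101 to 83437 bases. Genes in that window were mostly higher, with a median log2 difference of 1.10. Ryr1 itself was at -0.92 ± 0.28 without the offset (edgeR adjusted p = 0.0278) and at -2.11 ± 0.38 with it (edgeR adjusted p = 0.0386), and 1 of the other 500 lay lower.

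Mrpl17, a protein of the large mitochondrial ribosomal subunit, was at 50.6, 86.5 and 114 CPM against 41.3, 27.6 and 35.5 CPM, and its log2 difference of -2.05 with the offset went to -0.82 with the shortest transcript (edgeR adjusted p = 0.04). Mrps25, a protein of the small one, was at 32.7, 51.5 and 60.0 CPM against 26.8, 18.6 and 23.7 CPM, but 58.3% of its exon bases are shared with Nr2c2. Pyurf, from the locus of a glycosylphosphatidylinositol anchor gene, was at 14.9, 18.8 and 29.5 CPM against 13.1, 9.84 and 9.95 CPM. In Mrpl17, Mrps25 and Pyurf PI3K inhibitor replicate 9 was the highest specimen, and without it the log2 difference of Pyurf without the offset went from -0.94 to -0.62.

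The other 6 lower genes lost their call with the shortest coding transcript. They were Camta1, a calmodulin-binding transcription activator, Naca, which shields new peptides at the ribosome, Rps15a of the small ribosomal subunit, the zinc finger gene Zfp560, Ptpn2, a phosphatase that switches off JAK kinases, and Fdx1, a mitochondrial ferredoxin. Naca was at 745, 1182 and 1500.2 CPM against 606, 444 and 438 CPM, and was called without the offset (log2 -1.20 ± 0.29, edgeR adjusted p = 0.012). Its deposited length is 7145 bases and its shortest coding transcript has 885. The log2 difference was -2.02 with the offset by deposited length, -1.62 with the median transcript length and -0.70 with the shortest transcript (edgeR adjusted p = 0.0536). Ptpn2, with 8404 bases deposited and a median transcript of 1568, went from -1.63 with the offset to -0.34 with the median transcript length (edgeR adjusted p = 0.177). Fdx1 was not called with the median transcript length either (-1.11, edgeR adjusted p = 0.0741). Naca and Rps15a also have near-identical copies elsewhere in the genome that could share reads.

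**Figure D4:**
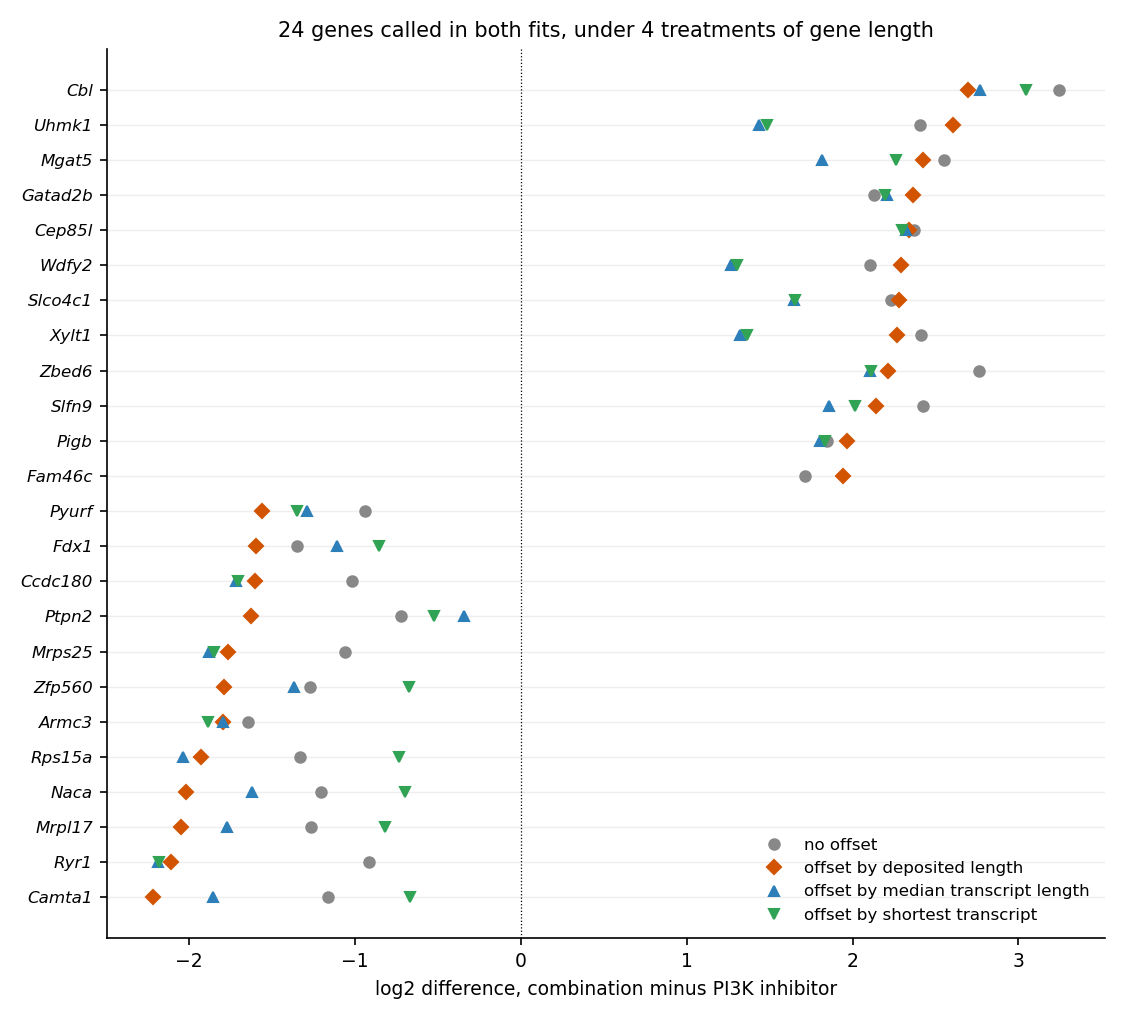
Log2 difference (combination minus PI3K inhibitor) of the 24 genes named from the calls of both fits, without an offset (grey) and with offsets by deposited length (orange), median coding transcript (blue) and shortest coding transcript (green). Higher genes stay above 1.2 under every length, while Ptpn2, Camta1, Naca, Rps15a and Zfp560 move close to -0.7 or nearer to 0 with the shortest transcript.

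Some genes with large differences were called without the offset and not with the offset by deposited length. Abca13, a lipid transporter gene of 16011 bases, was at 28.8, 11.1 and 14.7 CPM against 54.6, 98.4 and 108 CPM, and its log2 difference went from 2.25 to 0.99 with the offset (edgeR adjusted p = 0.0509). Mt1, the short metallothionein gene of 542 bases, was at 37.6, 72.9 and 127 CPM against 27.8, 19.5 and 24.5 CPM and went from -1.73 to -0.61 (edgeR adjusted p = 0.164, and -0.26 without PI3K inhibitor replicate 9). Myeov2, a signalosome subunit gene of 711 bases, went from -1.80 to -0.78. Lyz1, a lysozyme gene with a near-identical neighbor, was at 32.7, 16.3 and 14.6 CPM against 5.21, 4.82 and 7.36 CPM, with -1.87 and -1.33 (edgeR adjusted p = 0.0811, and -0.64 without PI3K inhibitor replicate 7). Nrip1, a nuclear receptor corepressor, had 2.39 and 1.96 (edgeR adjusted p = 0.0523). With the shortest coding transcript Abca13 (log2 0.91, edgeR adjusted p = 0.0337) and Nrip1 (1.86, edgeR adjusted p = 0.0309) were called higher. Mt1 (-1.09, edgeR adjusted p = 0.0349) and Lyz1 (-1.59, edgeR adjusted p = 0.021) were then called lower. None of these was called with the median transcript length. Col1a1, described next, was called with neither length. The collagen gene Col1a1 was at 8.81, 17.7 and 5.57 CPM against 23.3, 91.2 and 26.5 CPM, and without combination replicate 11 its log2 difference went from 2.14 to 1.22, and with the offset from 1.60 to 0.74.

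Gene lists of pathways and cell types were compared next. Their calls are to be read beside the shares over all tested genes. Without the offset these were 16.5% higher and 16.1% lower, and with it 1.69% and 1.93%. With the offset, some list medians changed sign when at least 1 specimen was left out. These included the FOXO, RAS, mitosis, erythroid, T and NK cell, immature and mature neutrophil, sterol and fatty acid, and histone lists. Medians of the B cell receptor, mature B cell, monocyte, inflammatory, ribosomal and respiratory lists did not change sign. The pathway of the added drug was examined as a list of 32 genes of B cell receptor and BTK signalling. Without the offset 16 were called higher and 0 lower, with a median log2 difference of 0.66, against a median of 0.02 over all tested genes. At like length the median was 0.23, with 23 of 32 positive in the fit with the offset (45.5% of all tested genes were positive), and 1 gene was called. This was Vav2, a guanine nucleotide exchange factor for small GTPases, at 5.08, 2.40 and 2.91 CPM against 7.24, 9.74 and 11.4 CPM (log2 1.21 ± 0.28 with the offset, edgeR adjusted p = 0.0463). Vav2 was not called with the median transcript length (0.76, edgeR adjusted p = 0.091). Pik3ap1, the adaptor that ties the B cell receptor and Toll-like receptors to PI3K, was at 28.3, 7.26 and 13.8 CPM against 39.6, 47.8 and 54.1 CPM. It was called without the offset (log2 1.51, edgeR adjusted p = 0.0144) and missed the threshold with it. The inhibitory coreceptor Cd22 was at 7.5, 3.86 and 6.39 CPM against 11.6, 12.7 and 21.5 CPM (log2 1.36, and 0.93 with the offset, edgeR adjusted p = 0.0761).

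Among 30 components of PI3K, AKT and mTOR signalling, 16 were called higher and 1 lower without the offset (median 0.65). At like length the median was 0.05 and 1 gene was called, Rps6kb1, the S6 kinase, which was lower with the offset (log2 -0.75, edgeR adjusted p = 0.0463) while its CPM values overlapped (38.1, 43.8 and 35.2 against 39.8, 45.2 and 43.4 CPM). That call ended with the median transcript length (-0.41, edgeR adjusted p = 0.153). Without the offset Rps6kb1 had a log2 difference of 0.13 (edgeR adjusted p = 0.596). Rictor, the defining subunit of mTOR complex 2, was at 16.8, 10.9 and 13.2 CPM against 23.2, 44.3 and 40.0 CPM, with a log2 difference of 1.39 without the offset and 0.39 with it.

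FOXO targets, the genes that FOXO factors switch on when AKT is low, had a median of 0.45 without the offset and 0.06 at like length, and of 29 members 2 were called in both fits, both higher. Foxo3, the FOXO factor itself, was at 19.1, 7.99 and 15.2 CPM with the PI3K inhibitor and at 33.8, 46.3 and 51.1 CPM with the combination, with no overlap. Its log2 difference was 1.63 ± 0.30 (edgeR adjusted p = 0.00791) and 1.54 ± 0.26 with the offset (edgeR adjusted p = 0.0386), and it was called under all 3 lengths. Vehicle was at 40.8 ± 14.6 CPM (SD, n = 3). Irs2, an adaptor of insulin and cytokine receptors, was at 3.60, 0.533 and 2.21 CPM against 6.44, 10.7 and 12.6 CPM (log2 1.85 with the offset, edgeR adjusted p = 0.0495). Irs2 was not called with the median transcript length (1.37, edgeR adjusted p = 0.0763).

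In the RAS pathway list 11 of 29 genes were called higher and 1 lower without the offset (16.5% and 16.1% of all tested genes), and 2 and 0 with it (1.69% and 1.93% of all). The 2 were Cbl and Ksr1, the scaffold that holds RAF, MEK and ERK together, at 8.17, 3.40 and 5.50 CPM against 13.6, 16.8 and 21.3 CPM (log2 1.23 with the offset, edgeR adjusted p = 0.04). The 1 lower gene without the offset was Hras, at 52.0, 81.2 and 92.8 CPM against 48.1, 34.1 and 36.4 CPM (log2 -0.93, and -0.84 with the offset, edgeR adjusted p = 0.0599). Among 22 ERK output genes Spred2, which restrains RAS through neurofibromin, was called with the offset, at 6.99, 1.20 and 4.36 CPM against 13.2, 16.3 and 17.7 CPM (log2 1.81, edgeR adjusted p = 0.0451). Ksr1 and Spred2 were not called with the median transcript length (edgeR adjusted p = 0.0595 and 0.0511).

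Cytokine feedback genes held 3 higher and 1 lower call of 27 tested with the offset: Cbl, Socs4, Sh2b3 and, lower, Ptpn2. Sh2b3, the adaptor LNK that damps JAK2 and KIT signals, was at 38.1, 25.5 and 22.6 CPM against 51.7, 80.9 and 72.7 CPM. Its log2 difference was 1.25 without the offset, 0.78 ± 0.19 with it (edgeR adjusted p = 0.0487) and 1.17 with the median transcript length (edgeR adjusted p = 0.0308). Socs4 was at 9.74, 5.26 and 8.41 CPM against 16.5, 16.9 and 19.5 CPM, a log2 difference of 1.31 with the offset. With the median transcript length, 6877 bases in place of the 2154 deposited, it was 0.30 (edgeR adjusted p = 0.407).

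Cell type markers were compared in the same way. In bulk marrow fewer cells of a type and less RNA per cell cannot be told apart. Of the 16 marker lists, mature B cell markers had the highest median at like length, 0.54 over 19 members, with 17 of 19 positive in the fit with the offset. Without the offset 8 were called higher and 1 lower, and with it 1 higher. Ms4a1, which encodes CD20, was at 10.6, 5.53 and 12.8 CPM with the PI3K inhibitor and at 23.4, 14.8 and 38.8 CPM with the combination, where replicate 11 was the lowest and still above all PI3K inhibitor specimens. The log2 difference was 1.41 ± 0.37 (edgeR adjusted p = 0.016) and 1.60 ± 0.37 with the offset (edgeR adjusted p = 0.0442), and it was not called with the median transcript length (1.22, edgeR adjusted p = 0.0698). Fcer2a (CD23) was at 1.02, 0.40 and 1.01 CPM against 1.18, 3.74 and 7.36 CPM, and Cr2 (CD21) at 0.72, 0.466 and 0.19 CPM against 1.61, 1.74 and 6.14 CPM. Both were called higher without the offset and neither with it, and combination replicate 12 was the highest for each. Fcer2a was called with the median transcript length (log2 3.00) and Cr2 with the shortest (3.12). Without replicate 12 the log2 difference of Cr2 without the offset went from 2.73 to 1.80 and the median of the list from 0.48 to 0.15. Pou2af1, the B cell coactivator OCA-B, was at 18.8, 11.4 and 15.8 CPM against 23.6, 25.1 and 30.4 CPM (log2 0.78 in each fit, edgeR adjusted p = 0.0536 with the offset). Markers of B-lineage precursors had a median of 0.41 at like length over 21 members, with 17 positive and 0 called with the offset.

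Single members were called in the plasma cell and T and NK cell lists. Tnfrsf13b, the receptor TACI of B cells and plasma cells, was at 5.38, 2.53 and 4.55 CPM against 9.80, 6.97 and 7.40 CPM (log2 0.94, and 1.76 with the offset, edgeR adjusted p = 0.0389). Tcf7, the transcription factor TCF-1 of T cells, was at 4.70, 3.53 and 2.59 CPM against 7.15, 7.94 and 10.5 CPM (log2 1.23, and 1.33 with the offset, edgeR adjusted p = 0.0389). Both were called under all 3 lengths. The plasma cell list had a median of -0.13 without the offset and 0.23 at like length, with 2 of 12 called higher and 0 lower without the offset. Its members went both ways, with 5 of 12 positive without the offset and 8 with it. The T and NK cell list had a median of -0.16 and of 0.17 at like length, with 2 of 23 called higher and 3 lower without the offset. Over all tested genes 16.5% were called higher and 16.1% lower without the offset, so neither list stood out by these counts.

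Monocyte markers had a median of 0.44 without the offset and 0.35 at like length, with 17 of 21 positive in the fit with the offset and 1 called. This was Fn1, the fibronectin gene that classical monocytes express, at 174, 73.4 and 62.2 CPM against 398, 470.2 and 561 CPM. Every combination specimen was more than 2 times as high as any PI3K inhibitor specimen. The log2 difference was 2.20 ± 0.36 (edgeR adjusted p = 0.00739) and 1.34 ± 0.27 with the offset (edgeR adjusted p = 0.0389), and vehicle stood at 661 ± 320.3 CPM (SD, n = 3). Csf1r, the receptor that monocytes depend on, was at 99.9, 46.9 and 55.7 CPM against 123, 125 and 159 CPM (log2 1.01, and 0.70 with the offset, edgeR adjusted p = 0.0943). Pou2f2, an octamer-binding factor high in patrolling monocytes and in B cells, was at 10.5, 5.79 and 6.14 CPM against 15.1, 14.5 and 17.1 CPM (log2 1.05, and 0.84 with the offset, edgeR adjusted p = 0.0626).

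Neutrophil markers were lower without the offset and near other genes with it. Of 22 mature neutrophil markers 10 were called lower and 1 higher without the offset (median -0.51), and 0 with it (median 0.07 at like length). The short granule gene Camp, from the list of immature neutrophil markers, was at 10614, 28652 and 18619 CPM against 7575, 6943 and 4663 CPM, with a log2 difference of -1.59 and of -0.55 with the offset (edgeR adjusted p = 0.176, and -0.28 without PI3K inhibitor replicate 8). The long gene Csf3r, the receptor for granulocyte colony-stimulating factor, went the other way without the offset, at 283, 225 and 210 CPM against 339, 589 and 566 CPM (log2 1.06, and 0.69 with the offset, edgeR adjusted p = 0.0776). Erythroid markers had a median of -0.08 without the offset and 0.20 at like length, with 0 of 24 called with the offset.

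Inflammatory cytokine and receptor genes had 10 of 38 members called higher and 1 lower without the offset, and 2 and 0 with it. Over all tested genes the shares were 16.5% and 16.1% without the offset, and 1.69% and 1.93% with it. Tlr5, the flagellin receptor, was at 2.63, 1.66 and 1.52 CPM with the PI3K inhibitor and at 4.17, 9.74 and 9.73 CPM with the combination, with replicate 10 apart from the other 2. The log2 difference was 2.00 ± 0.37 (edgeR adjusted p = 0.00806), 1.83 ± 0.35 with the offset (edgeR adjusted p = 0.0389), and it was called under all 3 lengths. Il6ra, the interleukin 6 receptor, was at 31.1, 17.0 and 16.1 CPM against 47.0, 52.6 and 68.3 CPM (log2 1.19 with the offset, edgeR adjusted p = 0.0389), and was not called with the median transcript length (0.61, edgeR adjusted p = 0.0865). Tlr9 was at 5.67, 0.799 and 2.78 CPM against 9.33, 12.5 and 15.9 CPM (log2 1.78 with the offset, edgeR adjusted p = 0.0556). In the NF-kB list the subunit gene Rel, c-REL, was called, at 3.81, 2.26 and 1.77 CPM against 6.06, 11.6 and 10.9 CPM (log2 1.83 with the offset, edgeR adjusted p = 0.0386). With the median transcript length it went to 0.89 (edgeR adjusted p = 0.0703). The median of the inflammatory list was 0.15 without the offset and 0.32 at like length, and in the fit with the offset it was 0.24, with 0.09 without PI3K inhibitor replicate 9 and 0.51 without replicate 7. Interferon-stimulated genes had a median of 0.01 and of -0.05 at like length, with 0 of 36 called with the offset.

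Short genes of translation and respiration made up the most uniform change without the offset. Of 52 listed cytoplasmic ribosomal protein genes 49 were called lower and 0 higher, with a median of -1.18. The median length of the list was 714 bases, and at like length its median was -0.15. Ribosomal protein genes picked by symbol, a set not limited to the list, took 9.65%, 12.1% and 15% of all counts with the PI3K inhibitor. With the combination they took 8.23%, 6.57% and 6.63%. With the offset 2 of the 52 listed genes were called lower. Rpsa, which also serves as the laminin receptor, was at 3208, 5787 and 5085 CPM against 2512, 1646 and 1695 CPM (log2 -1.27, and -0.98 with the offset, edgeR adjusted p = 0.0487), and was called under all 3 lengths. Rpl22 was at 605, 1092 and 1402 CPM against 505, 401 and 384 CPM (log2 -1.25 with the offset, edgeR adjusted p = 0.0423) and was not called with its shortest transcript (-0.65, edgeR adjusted p = 0.0686). Both have near-identical copies in the genome.

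Of 47 nuclear genes of oxidative phosphorylation 39 were called lower and 0 higher without the offset (median -1.13), and 0 with it (median -0.23 at like length, 4 positive in the fit with the offset). Cox7c of complex IV was at 132, 283 and 309 CPM against 90.6, 66.3 and 64.9 CPM, a log2 difference of -1.71 and of -0.59 with the offset (edgeR adjusted p = 0.0747). Ndufs6 of complex I was at 93.2, 197 and 228 CPM against 69.5, 53.8 and 48.7 CPM, with -1.59 and -0.52 (edgeR adjusted p = 0.103). The size of what was left depended on the length used. With the shortest coding transcript the median of the respiratory list was -0.68 and that of the ribosomal list -0.65, and Cox7c (-1.09) and Ndufs6 (-0.97) were called lower.

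Antioxidant enzymes had 17 of 31 members called lower and 2 higher without the offset, and 0 with it (median -0.72, and -0.06 at like length). Gpx4, which removes lipid peroxides, was at 363, 663 and 728 CPM against 288, 212 and 198 CPM (log2 -1.33, and -0.85 with the offset, edgeR adjusted p = 0.0537). BCL2 family genes had a median of -0.37 without the offset and -0.28 at like length, with 7 of 20 called lower without the offset and 0 with it. Of all tested genes 16.1% were called lower without the offset. Bad, which promotes cell death, was at 41.8, 56.7 and 51.2 CPM against 32.7, 25.2 and 22.4 CPM (log2 -0.90, and -0.43 with the offset, edgeR adjusted p = 0.125), and it shares 34% of its exon bases with Gpr137.

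Of 43 DNA replication genes 2 were called higher and 9 lower without the offset, and 0 and 2 with it. The median was -0.23 without the offset and -0.06 at like length. One of these, Dut, which keeps uracil out of DNA, was at 247, 427 and 588 CPM against 214, 179 and 177 CPM (log2 -1.14 with the offset). Among 36 mitosis genes 6 were called higher and 6 lower without the offset, close to the 16.5% and 16.1% of all tested genes, and the median was 0.16 and, at like length, 0.02. The long proliferation gene Mki67 was at 340, 296 and 324 CPM against 732, 1229 and 1038 CPM (log2 1.64, and 0.59 with the offset, edgeR adjusted p = 0.0729). Birc5, survivin, was at 238, 449 and 458 CPM against 214, 183 and 146 CPM (log2 -1.08, and -1.32 with the offset, edgeR adjusted p = 0.0412). Dut and Birc5 were not called with the median or the shortest transcript length.

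The sterol and fatty acid, unfolded protein response and histone lists each had 1 member called with the offset. Without the offset, 16.5% of all tested genes were called higher and 16.1% lower. Sterol and fatty acid synthesis genes had 7 of 30 called higher and 3 lower without the offset, with medians of 0.27 and, at like length, 0.07. Fasn, fatty acid synthase, was at 23.7, 13 and 17.1 CPM against 47.4, 69.8 and 77.0 CPM (log2 1.85, and 0.83 ± 0.17 with the offset, edgeR adjusted p = 0.0389). Unfolded protein response genes had medians of -0.20 and, at like length, -0.07, with 9 of 27 positive and 4 called higher and 4 lower without the offset. Their 1 called member with the offset was higher. Ern1, the stress sensor IRE1 of the endoplasmic reticulum, was at 9.53, 3.8 and 5.76 CPM against 16.2, 26.1 and 26.9 CPM (log2 1.85, and 1.51 ± 0.28 with the offset, edgeR adjusted p = 0.0386). Fasn and Ern1 were called under all 3 lengths, with no overlap between the groups. Histone genes, with a median length of 491 bases, had a median of -0.67 without the offset, 0.34 at like length and, in the fit with the shortest transcript, -0.29. One of 42, Hist1h2bg, was called higher with the offset (log2 2.02, edgeR adjusted p = 0.0431), at 1.65, 1.53 and 1.33 CPM against 2.32, 5.43 and 1.85 CPM. Without the offset Hist1h2bg was not called (log2 1.07, edgeR adjusted p = 0.0689), and its difference went to 0.46 without combination replicate 11.

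**Figure D5:**
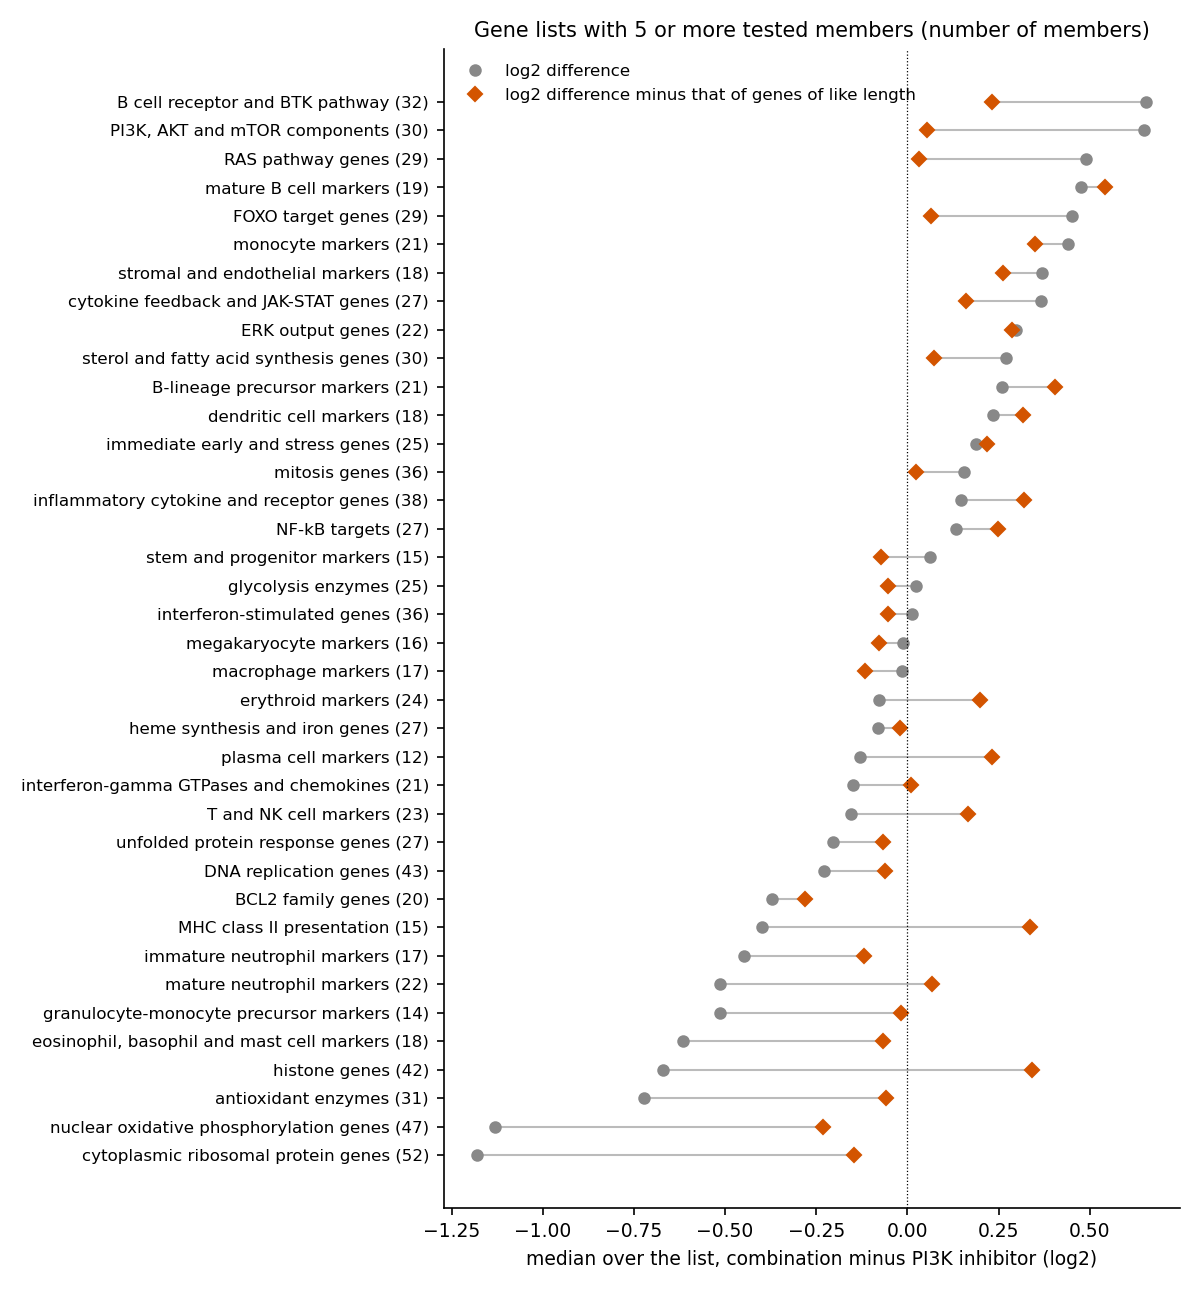
Median log2 difference (combination minus PI3K inhibitor) of 38 gene lists with 5 or more tested members, with the number of members in parentheses. Grey circles are the log2 differences and orange diamonds the same after subtracting the median of genes of like length. The lists of long signalling genes (0.66 for B cell receptor and BTK, 0.65 for PI3K) and of short ribosomal (-1.18) and respiratory genes (-1.13) move toward 0, and mature B cell markers stay at 0.48 and 0.54.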

How the data were processed

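Libraries were made from marrow mononuclear cell RNA with a SMART-Seq low-input cDNA kit and Nextera XT, per the labels' protocols. This preparation does not mark strand, so overlapping and antisense genes cannot be told apart. Reads were aligned with STAR and counted with featureCounts on mm10, per the submitters' processing notes, with versions and settings not given in the sources used here. Raw counts for each gene were deposited, 1 column per specimen, with the gene length in bases and the exon coordinates beside them. The 2 listed samples of a specimen appear as 1 column. All 6 specimens were kept. Chi-square per degree of freedom between specimens of a group was 21.7 to 123, more than counting noise alone would give. Between the groups it ran from 40 (replicates 7 and 10) to 352 (replicates 8 and 12). These values do not show whether the specimens are separate mice. 

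The counts were fitted with edgeR 4.0.16 (R 4.3.3). Genes were kept by filterByExpr on the 6 specimens (smallest count 10, total count 15), libraries were scaled by TMM over all 12 specimens, and glmQLFit and glmQLFTest (robust) were run, with p-values adjusted after Benjamini and Hochberg over the whole table (called at 0.05 or less). CPM uses TMM-scaled totals of tested genes (log2 CPM with prior count 2). The length offset is a natural spline (5 degrees of freedom) of log2 CPM minus the gene's mean on log2 length, per library, and like-length medians use the gene and its 500 neighbors in length. The scripts were tested on simulated data.

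The comparison, the gene lists and the tests were chosen with earlier results of these data known. Named genes are Btk, Pik3cd and Ptpn11, up to 12 per direction with the largest difference with the offset among genes called in both fits without overlap and with mean log2 CPM at or above 2 (predicted genes left out), up to 4 per list with the smallest p with the offset, of which some are described, and up to 3 per direction called without the offset alone. Alternatives were DESeq2 1.42.0, voom (limma 3.58.1), other scalings, filters, specimens and forms of the offset, and a Y-linked covariate. Offsets by GENCODE M21 transcript length (median or shortest of the basic coding transcripts) and by length with GC content were added after seeing the data. Some items are not reported here.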

Additional observations from a re-analysis of the deposited data

Results flagged for a closer look

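The interaction of the inhibitors, (combination minus PI3K inhibitor) minus (BTK inhibitor minus vehicle), asks whether adding the BTK inhibitor changed a gene differently with and without the PI3K inhibitor. In edgeR's quasi-likelihood test over all 12 specimens with Benjamini-Hochberg adjustment, 3522 of 12742 genes (27.6%) were called without a length offset, 1530 higher and 1992 lower. With the offset 1 gene was called, and 3646 had an unadjusted p under 0.05. No gene was called without combination replicate 11 or 12. Without vehicle replicate 2, PI3K inhibitor replicate 8 or PI3K inhibitor replicate 9, 1 gene was called, and without BTK inhibitor replicate 6, 5690 were. BTK inhibitor replicate 6 alone among the 12 specimens carries another date in its title. The log2 values that follow are this interaction without the offset, for the 57 called genes among the 72 described above, and carry the length trend with them. Of these, 53 had an unadjusted p under 0.05 with the offset. The other 4 had offset values of 0.08 for Pik3cd, 0.89 for Rictor, -0.84 for Lyz1 and -1.34 for Mt1. Apart from Btk, Pik3cd and Ptpn11, the 72 genes were named for the size or p-value of their combination minus PI3K inhibitor difference. That difference is part of this interaction, so the choice of genes raised both counts. The values below are thus no separate support for the differences described above. Groups of 3 were not tested for outlying specimens.

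Among the named higher genes the interaction was 4.87 for Cbl, 4.23 for Mgat5, 3.91 for Slfn9, 3.73 for Gatad2b, 3.72 for Uhmk1, 3.69 for Fam46c, 3.65 for Cep85l, 3.50 for Slco4c1, 3.47 for Wdfy2, 3.20 for Pigb and 3.15 for Xylt1. It was 3.97 for Abca13 and 3.43 for Nrip1. Of the signalling genes it was 3.89 for Irs2, 3.30 for Spred2, 3.09 for Ksr1, 2.89 for Foxo3, 2.54 for Vav2, 2.49 for Sh2b3, 2.34 for Rictor, 2.26 for Socs4 and 1.13 for Pik3cd.

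Of the receptor, inflammatory and marker genes it was 3.60 for Tlr5, 3.38 for Tlr9, 3.36 for Fn1, 3.00 for Rel, 2.65 for Il6ra, 2.19 for Csf1r, 2.13 for Csf3r, 2.19 for Pou2f2 and 2.08 for Tcf7. It was 3.37 for Ern1, 3.32 for Fasn and 2.65 for Mki67.

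Among the named lower genes it was -3.34 for Armc3, -3.28 for Rps15a, -2.64 for Zfp560, -2.52 for Fdx1, -2.44 for Naca, -2.34 for Mrpl17, -2.31 for Mrps25, -1.86 for Camta1, -1.50 for Pyurf and -1.28 for Ptpn2. It was -5.16 for Myeov2, -3.79 for Mt1 and -1.81 for Lyz1. Of the other lower genes it was -3.87 for Cox7c, -3.82 for Ndufs6, -3.67 for Camp, -3.29 for Rpsa, -3.26 for Birc5, -3.06 for Gpx4, -2.84 for Rpl22, -2.39 for Dut, -2.19 for Hras and -1.62 for Bad.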

How the results depend on the processing

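No paired analysis was possible because the compared groups share no replicate numbers. Leaving out each specimen in turn gave 766 to 2552 higher and 359 to 2594 lower calls without the offset, and 0 to 612 higher and 0 to 860 lower with it. With all 12 specimens in the fit 0 genes were called higher and 0 lower by edgeR in either fit (3618 at an unadjusted p under 0.05 without the offset and 1327 with it). With BTK inhibitor replicate 5, whose depth and Rn45s share stand apart, left out of that fit, calls were 1299 higher and 1305 lower without the offset, and 0 and 0 with it (2745 at an unadjusted p under 0.05). With the length offset there were 538 higher and 947 lower calls by DESeq2, 602 and 864 by limma voom, 605 and 695 without a filter on low counts, 369 and 376 with a covariate for Y-linked transcripts, and 772 and 759 with the shortest coding transcript. The cause of these changes was not tested. The interaction of the inhibitors went from 3522 called genes to 1 with the length offset, and to between 0 and 5690 when each specimen was left out. Other scalings, a CPM filter of 1, leaving out hemoglobin genes and Rn45s, and offsets by 20 length bins or linear in length kept the counts within 1.5 times. Depth limits genes near 1 CPM, such as Cr2 and Fcer2a.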
